A study of Mus musculus with 24 samples.

Results

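Solute carriers are the genes named Slc, membrane proteins that move ions, nutrients and metabolites across the plasma membrane and across the membranes of organelles. The genes described here were taken from the probe sets with a single platform gene symbol that begins with Slc and a digit. The genes Slc2a1, Slc2a3, Slc16a3, Slc7a1, Slc7a5, Slc7a11 and Slc3a2 were left out by the rule. A gene's values are those of its brightest probe set by the mean of all 24 arrays, and the gene was kept if 2 or more arrays exceeded 60 there (log2 5.91). This left 142 of the 255 solute carrier genes on the array, out of 12393 named genes, of which 7789 passed the same level. The members were thus selected on measured levels, and that they are expressed is no result. The level of 60 is called the background level below. It was set by the rule and not measured on these arrays, so a value under it does not show absence. Nearest inside the level were Slc35f6, Slc25a42, Slc52a3 and Slc6a8, each over it on 2 arrays, with a next-to-highest value of 5.92, 5.94, 5.95 and 6.05. Nearest outside were Slc8a2 and Slc9a8 with a next-to-highest value of 5.89, Slc12a3 with 5.88 and Slc4a3 with 5.87. Of the 142 members, 3 (Slc4a1ap, Slc9a3r1 and Slc9a3r2) are adaptor proteins named after a carrier and transport nothing themselves.

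Messenger RNA was measured on 24 arrays of a single type in 7 groups of C57BL/6 mouse blood cells. Granulocyte monocyte progenitors (GMP), which give rise to neutrophils and monocytes, carried an empty GFP vector (GFP, 3 arrays) or a leukemia fusion oncogene, namely AML1-ETO (AE, 4), NUP98-HOXA9 (NHA9, 3) or MOZ-TIF2 (MT2, 4). Cells positive for GFP were taken 36 hours after infection. Untransduced sorted cells were normal GMP (4 arrays) and normal LSK cells (3, titled HSC), a marrow fraction that contains the stem cells. The last group was sorted leukemic cells with the GMP surface phenotype from MOZ-TIF2 leukemia (L-GMP, 3), which differ from GMP in the oncogene and in the course of the leukemia as well. The GFP group went through infection and culture and GMP did not, so vector, infection and culture cannot be told apart in GFP against GMP. Nothing in the labels tells whether the replicates came from separate animals or cultures, so the p-values measure only the spread between these arrays, which may be technical.

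Background knowledge of the family is as follows. Carriers at the cell surface bring in amino acids, sugars, nucleosides, vitamins, choline and metals, carriers of the Slc25 family shuttle metabolites, phosphate and adenine nucleotides through the inner mitochondrial membrane, and the Slc35 family feeds nucleotide sugars to the Golgi and endoplasmic reticulum. In blood cells, iron export by ferroportin (Slc40a1) and metal transport in the phagosome by Nramp1 (Slc11a1) are known for their part in macrophages. Folate and nucleoside carriers also bring antileukemic drugs such as methotrexate and cytarabine into the cell.

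On each array 46.1% to 48.3% of probe sets were over 60, with array medians of 5.63 to 5.76. A marker counts as over 60 in a group where at least 2 of its arrays exceed that level. By that count 10 of 10 GMP markers were over 60 in every group, though Fcgr3 was at 5.58 on L-GMP 3. Their summed levels were 16100 to 24500 in LSK and at least 38200 in the other groups. Of the 10 tested in AE against GFP, 2 were called higher (Cd34 and Csf1r) and 4 lower (Mpo, Elane, Cebpa and Ms4a3). Of all genes tested there, 9.68% were higher and 2.43% lower. In MT2 against AE, 7 were higher and 3 lower (12.1% and 17.9% of all genes), and their part in the carriers was not tested. Of 6 erythroid markers on the array, 4 were over 60 in LSK, 3 in GMP and 1 in every other group, with Hba-a1 and Alas2 under it in all 7. Klf1, Gata1 and Ermap were called higher in LSK than in GMP, and Klf1 and Gata1 lower in GFP than in GMP, and their part in the carriers was not tested. GMP 2 stood apart from the other GMP arrays on the third principal component (−63.3 against −22.4 to 5.49), and L-GMP 1 from the other L-GMP arrays on the second (31.9 against 51.1 and 52.8). Control probe sets for Gapdh and actin lie at the end and at the start of the transcript. Their end minus start difference was highest of all arrays in L-GMP 1, at 4.82 and 3.45. It was 3.58 and 2.43 in L-GMP 2, and 3.08 and 2.66 in L-GMP 3. GMP 2 was highest among GMP arrays, at 4.33 and 2.95. The part of these differences in the carriers was not tested. Array file names carry a tag that the labels do not explain. All 3 GFP arrays, GMP 1 to 3, MT2 1 to 3, LSK 1 and 2, NHA9 1 and 2, AE 1 and L-GMP 1 share it. AE 2 to 4, MT2 4 and GMP 4 carry another, and LSK 3, NHA9 3, L-GMP 2 and L-GMP 3 carry none. In AE against GFP a fit within the arrays of the shared tag therefore sets AE 1 alone against 3 GFP arrays, with the spread of AE assumed to be that of GFP. Without L-GMP 1, only untagged L-GMP arrays are set against tagged GMP arrays, so tag and group cannot be told apart there. The same holds without AE 1 in AE against GFP and in NHA9 against AE, where no AE array left shares a tag with the other group.

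Across the 7 groups the solute carriers varied about as much as other genes. The range of the 7 group means had a median of 0.80 on the log2 scale over the members and 0.79 over all 7789 genes, and it exceeded 1 in 53 members (37.3%) and in 2782 genes (35.7%). Among these 53 members the highest group was AE for 20 (37.7%, against 23.8% of the 2782 genes), LSK for 13 (24.5% against 32.8%), MT2 for 8 (15.1% against 7.23%) and L-GMP for 5 (9.43% against 18%). The lowest group was LSK for 16 (30.2% against 23.2%) and L-GMP for 11 (20.8% against 21%). These shares describe the members and were not tested.

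**Figure D1:**
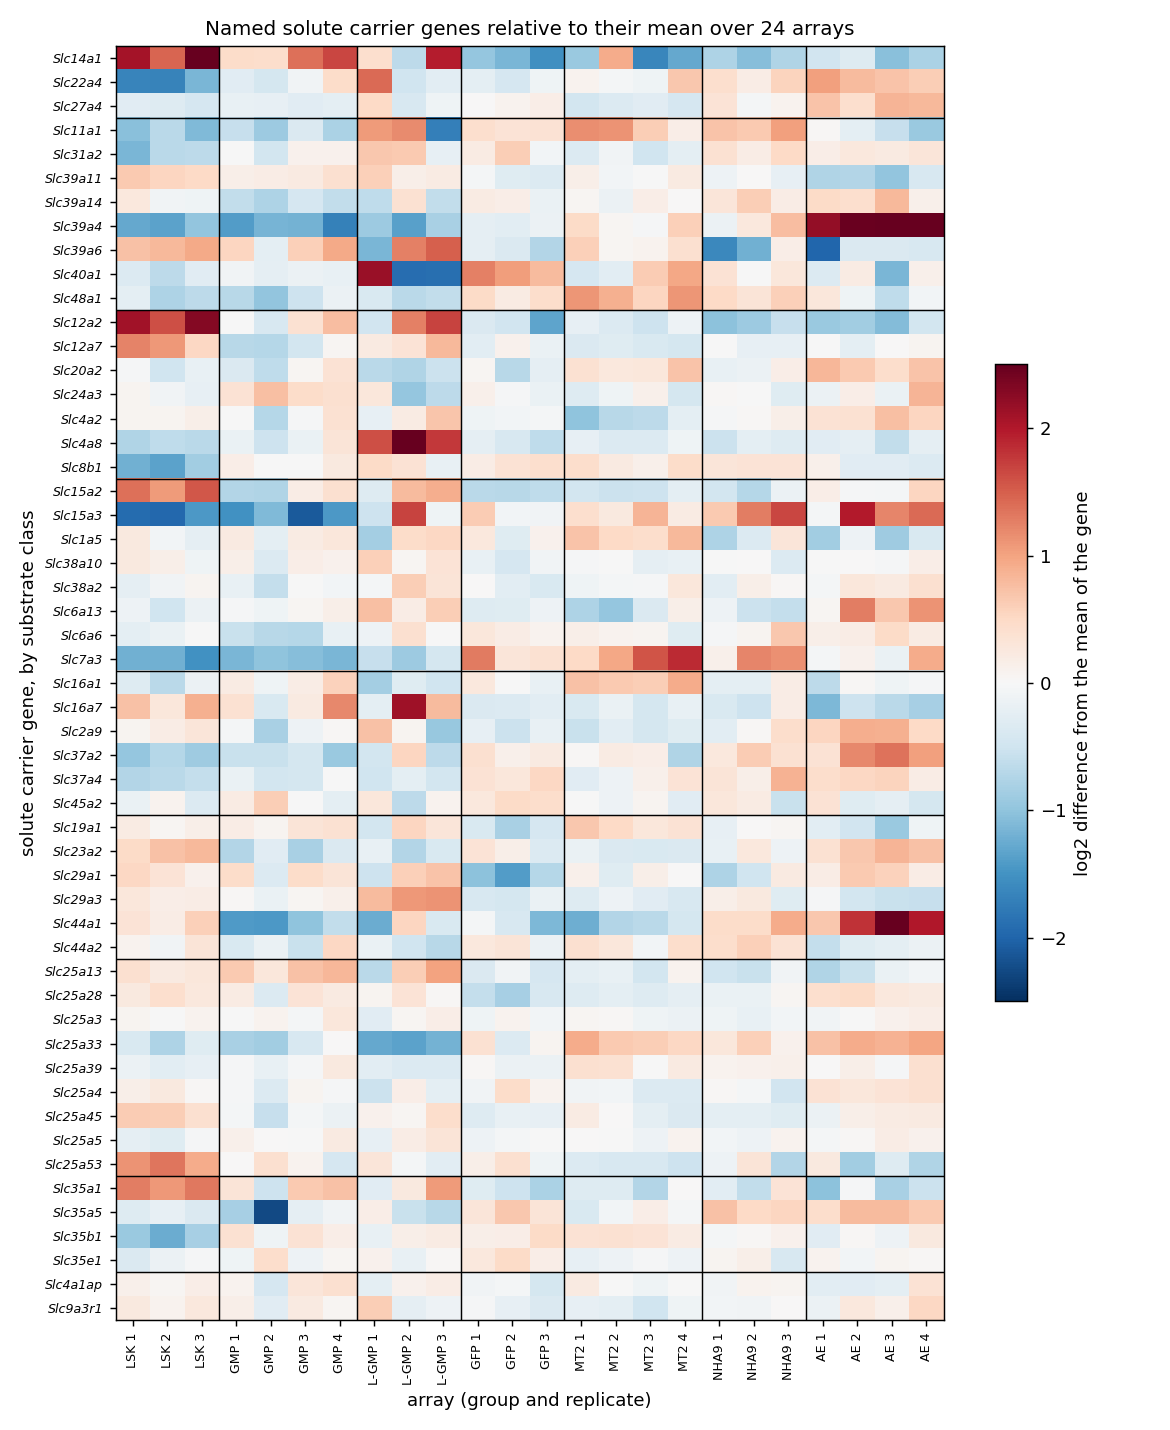
Expression of the 53 named solute carrier genes (rows, by substrate class) on each of the 24 arrays (columns, by group), as the log2 difference from the mean of the gene; differences beyond the ends of the colour scale take the end colour. The darkest block is Slc39a4 on the AE arrays, and Slc40a1 on L-GMP 1 has the opposite colour to L-GMP 2 and L-GMP 3.

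Counts of members that changed lay near those of all genes in most comparisons. A gene counts as called where the adjusted p of limma, over all probe sets tested in the comparison, was under 0.05. In AE against GFP, 17 of 127 tested members rose (13.4%, against 9.68% of all genes tested) and 2 fell (1.57% against 2.43%). In MT2 against GFP, 8 of 123 rose (6.5% against 8.8%) and 5 fell (4.07% against 3.22%). Of 7 mature neutrophil markers tested there, 4 fell (S100a8, S100a9, Mmp8 and Cxcr2), with a summed level of 6360 to 18400 in MT2 and of 26300 to 31300 in GFP over the 8 on the array, and their part in the carriers was not tested. In NHA9 against GFP 0 of 125 members were called, with 13 at an unadjusted p under 0.05 in limma, where 0.173% of all genes rose and 0.0145% fell. By the two-sample Welch test of the design text the count was 0 in NHA9, MT2 and AE against GFP alike, so that test does not set NHA9 apart. All 3 oncogenes joined against GFP gave 0 of 130 in limma and by the Welch test, with 17 members at an unadjusted p under 0.05 in limma, and 0% of all genes called higher and 0% lower.

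The most calls were made between MT2 and AE. MT2 against AE called 16 of 128 members higher in MT2 (12.5% against 12.1% of all genes) and 26 lower (20.3% against 17.9%). The tag of GFP was on 3 of 4 MT2 arrays and 1 of 4 AE arrays, so tag and oncogene are partly confounded. With the tag as a factor, 30 of the 42 calls were kept. On the third principal component AE 1 was at −14.1 and AE 2 to 4 at 25.2 to 26.7. MT2 1 to 3 were at −2.76 to −2.44 there and MT2 4 at 15.4. NHA9 against AE called 4 higher and 6 lower of 128 (3.12% against 3% and 4.69% against 5.1%), and MT2 against NHA9 2 higher and 5 lower of 125 (1.6% against 3.38% and 4% against 4.65%). Between the groups without oncogene, GFP against GMP called 8 higher and 4 lower of 121 (6.61% against 8.77% and 3.31% against 7.83%), and LSK against GMP 12 higher and 4 lower of 123 (9.76% against 11.2% and 3.25% against 5.27%). L-GMP against GMP called 2 higher and 0 lower of 124 (1.61% against 3.62% and 0% against 1.61%), with 14 members at an unadjusted p under 0.05 in limma and 0 called by the Welch test. That test called few members in the other comparisons with GMP too, 1 in LSK and 2 in GFP. Of 5 mast cell, basophil and eosinophil markers tested, 4 fell in GFP against GMP (Cpa3, Mcpt8, Prg2 and Epx) and 3 in L-GMP against GMP (Mcpt8, Prg2 and Epx). Over the 8 on the array their summed level was 1500 to 2030 in GMP, 420 to 554 in GFP and 268 to 760 in L-GMP, and their part was not tested. All oncogene comparisons share the 3 GFP arrays and the comparisons with GMP share its 4 arrays, so their values are given side by side only.

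**Figure D2:**
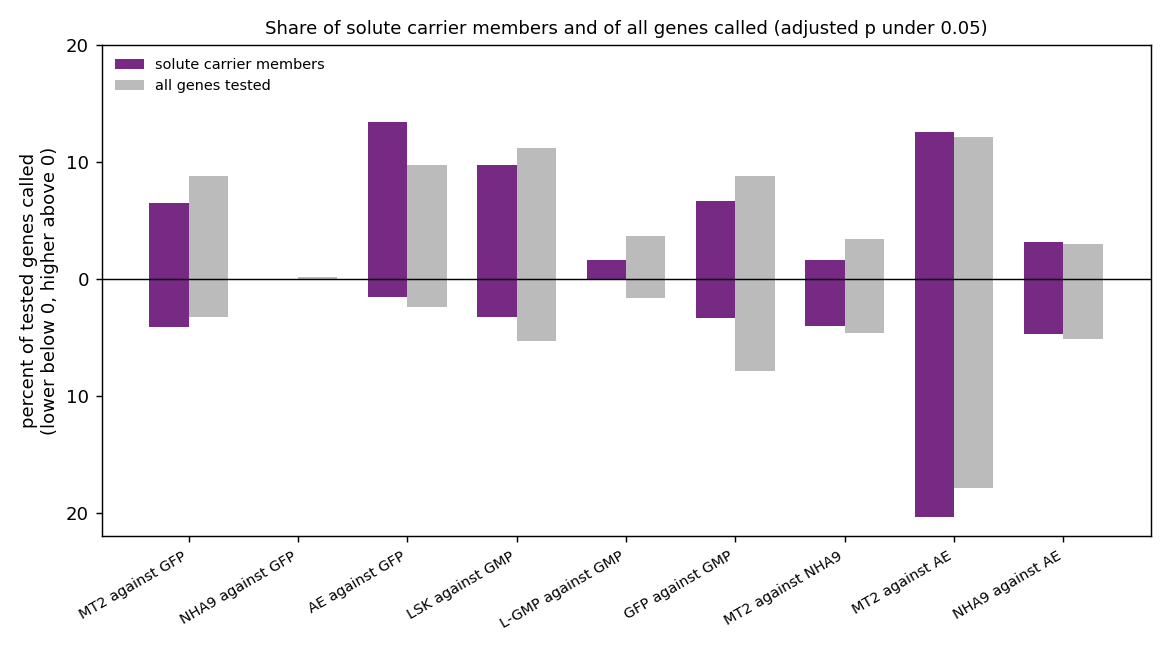
Percent of tested solute carrier members (purple) and of all genes tested (grey) called in each comparison, with higher calls above 0 and lower calls below 0. In AE against GFP 13.4% of the members and 9.68% of all genes were higher, and in L-GMP against GMP 1.61% and 3.62%.

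These counts rest on few arrays. The number called in AE against GFP went from 19 to 40 without AE 1, where 21% of all genes were higher and 7.45% lower, and to 6 without GFP 2. Without AE 1, tag and group cannot be told apart in AE against GFP. In MT2 against GFP 2 calls were left without GFP 2, and in NHA9 against GFP 1 was made without NHA9 3 (Slc39a6, lower). Without GMP 2, the calls went from 12 to 37 in GFP against GMP (12.6% of all genes higher, 24.6% lower) and from 16 to 30 in LSK against GMP (14.5% and 12%). Without L-GMP 1 they went from 2 to 8 in L-GMP against GMP (6.03% and 4.69%). Of all 121 calls, 56 held whichever array was left out. With the tag as a factor 76 of the 121 were kept, and in AE against GFP 7 of the 19. After quantile normalization the members called higher and lower were 11 and 6 in AE against GFP, 5 and 9 in MT2 against GFP and 13 and 14 in LSK against GMP, so the balance of directions depends on the scaling. In AE against GFP that scaling moved the median difference of all genes from 0.10 to −0.01 on the log2 scale.

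Metal and heme carriers included Slc39a4, the member with the largest rise in AE against GFP. Of 27 such genes on the array 24 were members, 12 of them over 60 on all 24 arrays. Slc39a4 encodes ZIP4, a zinc importer of the plasma membrane known from zinc uptake in the gut. In AE cells Slc39a4 was at 8.33, 8.59, 9.01 and 9.35 on the log2 scale, in GFP cells at 5.90, 5.86 and 5.97, in MT2 cells at 6.61, 6.18, 6.10 and 6.72, and in NHA9 cells at 5.98, 6.39 and 6.90. The AE arrays lay above every other array, the GFP arrays at the background level, and all LSK, GMP and L-GMP arrays below it, between 4.43 and 5.31. Slc39a4 rose by 2.91 ± 0.23 (SE, log2) in AE against GFP, with an adjusted p of 0.00115 in limma, and since GFP lies at the background no exact fold is given. Its difference from AE was −2.42 ± 0.23 in MT2 (5.36-fold lower, adjusted p 1.15e-05) and −2.40 ± 0.25 in NHA9 (5.27-fold lower, adjusted p 0.000104). In MT2 and NHA9 against GFP its differences of 0.49 ± 0.16 and 0.52 ± 0.22 were not called (adjusted p 0.0744 and 0.464). The rise in AE held with any array left out and with the tag as a factor (2.76, adjusted p 1.4e-05).

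Slc40a1, ferroportin, the iron exporter of the cell, moved the other way. It was at 9.20, 8.98 and 8.72 in GFP, 7.85, 7.72, 7.79 and 7.76 in GMP, and 7.60, 8.15, 6.80 and 8.07 in AE. All GFP arrays were above all GMP and all AE arrays. Slc40a1 rose by 1.18 ± 0.15 from GMP to GFP (2.27-fold, adjusted p 0.00119) and its difference between AE and GFP was −1.31 ± 0.30 (2.48-fold lower in AE, adjusted p 0.024), and its other probe set was called in the same direction in each (1.26 and −1.14). Between AE and GFP the call was lost when any GFP array was left out (adjusted p 0.052 to 0.104). With the tag as a factor neither difference was called (adjusted p 0.115 and 0.136), while within the arrays of 1 tag both were (adjusted p 0.00286 and 0.0115, the AE value resting on AE 1). In L-GMP, Slc40a1 was at 10.09 in L-GMP 1 and at 6.03 and 6.05 in the other arrays. Its difference from GMP was −0.39 ± 0.85 and not called with all 3 arrays (adjusted p 0.863), and −1.74 ± 0.17 without L-GMP 1 (adjusted p 0.000661), where the tag and the group cannot be told apart.

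Slc11a1, the phagosomal divalent metal transporter of macrophages, and Slc48a1, which exports heme from the phagolysosome, were also higher in GFP than in GMP. Slc11a1 was at 6.65, 6.58 and 6.60 in GFP and at 5.65, 5.33, 5.86 and 5.44 in GMP, every GMP array being under the background level, so the rise was at least 1.63-fold (1.04 ± 0.16, adjusted p 0.0031). In AE it was at 6.25, 5.98, 5.66 and 5.31, below every GFP array (−0.81 ± 0.21, adjusted p 0.0386), and in MT2 at 7.40, 7.35, 6.84 and 6.40. MT2 exceeded AE by 1.20 ± 0.22 and NHA9 exceeded AE by 1.23 ± 0.24 (adjusted p 0.00134 and 0.00586). The AE fall of Slc11a1 was lost with any array other than AE 1 left out (adjusted p 0.0584 to 0.14) and was −0.36 with AE 1 alone (adjusted p 0.161). Slc48a1 rose by 0.96 ± 0.20 from GMP to GFP (1.95-fold, adjusted p 0.0131) and was 1.04 ± 0.18 higher in MT2 than in AE (2.06-fold, adjusted p 0.00076), with its other probe set called likewise in both. Macrophage and monocyte markers rose with these carriers in GFP against GMP: 8 of 10 were on the array, their summed level was 2970 to 4430 in GMP, 7450 to 8610 in GFP, 6520 to 8880 in MT2 and 11100 to 15000 in AE, and all 6 tested rose in GFP against GMP, where 8.77% of all genes rose, while Mrc1 and C1qa were under the level. In AE against GFP, where Slc11a1 and Slc40a1 were lower, 2 of the 6 markers tested were called higher (Csf1r and Cd14) and 0 lower. Of all genes, 9.68% were higher there and 2.43% lower. These markers were not tested against the carriers. The part of macrophage and monocyte cells in the iron carriers was not tested. In such bulk samples fewer cells of a type and less RNA per cell cannot be told apart.

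Other genes of iron, zinc and copper handling were counted beside the carriers. Of 17 tested in GFP against GMP, 5 rose and 0 fell, where 8.77% of all genes rose and 7.83% fell. They were Tfrc, the transferrin receptor (0.91 ± 0.17, adjusted p 0.00708), the ferritin heavy chain Fth1 (0.94 ± 0.14, 0.0027), the heme oxygenase Hmox1 (2.80 ± 0.22, 7.3e-05) and the metallothioneins Mt1 (1.53 ± 0.18, 0.000797) and Mt2 (3.51 ± 0.30, 0.000135). Of 16 tested in AE against GFP, 5 rose and 2 fell (9.68% and 2.43% of all genes). The metal-binding metallothionein gene Mt2, not to be confused with the oncogene group, rose by a further 2.13 ± 0.32 (adjusted p 0.00403) and Hmox1 by 1.54 ± 0.30 (0.0128). Mt1 (0.78 ± 0.21, 0.0454), the iron regulatory protein and aconitase Aco1 (0.54 ± 0.13, 0.0308) and the copper chaperone Atox1 (0.61 ± 0.16, 0.037) also rose. Tfrc was at −1.66 ± 0.26 (0.00526) and Ncoa4, the receptor for ferritin breakdown, at −0.83 ± 0.14 (0.00611).

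Zinc carriers were called in either direction. Slc39a6 (ZIP6), a zinc importer, was at 8.11, 7.56, 7.59 and 7.90 in MT2, at 7.28, 7.14 and 6.77 in GFP, and at 5.53, 7.14, 7.15 and 7.11 in AE. It rose in MT2 against GFP (0.73 ± 0.17, adjusted p 0.026), where its other probe set moved by 0.12 and was not called (adjusted p 0.617), and was higher in MT2 than in AE (1.06 ± 0.38, adjusted p 0.0499), with AE 1 far below the other AE arrays. The Slc39a6 call against GFP was lost in 4 of 7 fits that left out an array (adjusted p 0.055 to 0.079 in limma). That against AE was lost in 10 of 14 (adjusted p 0.0503 to 0.127). Slc39a11 (ZIP11) was at 7.20, 7.22, 6.97 and 7.56 in AE and higher in MT2 (0.79 ± 0.14, adjusted p 0.000752) and in NHA9 (0.60 ± 0.15, adjusted p 0.0203). Slc30a9 rose in AE against GFP (0.64 ± 0.16, adjusted p 0.0368), as did the magnesium carrier Slc41a1 (0.73 ± 0.20, adjusted p 0.0427), and with AE 1 as the only AE array, within the shared tag, the differences were 0.51 and 0.43 (adjusted p 0.15 and 0.301). Slc41a1 was also higher in LSK than in GMP (0.92 ± 0.22, adjusted p 0.0226), with the zinc exporter Slc30a4 (1.02 ± 0.20, adjusted p 0.00891). Slc39a14 (ZIP14) was called higher in LSK and in GFP than in GMP (0.63 ± 0.16 and 0.67 ± 0.16, adjusted p 0.0318 and 0.0209), but its other probe set was at −0.84 and −0.19 there and was not called, so its direction depends on the probe set.

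**Figure D3:**
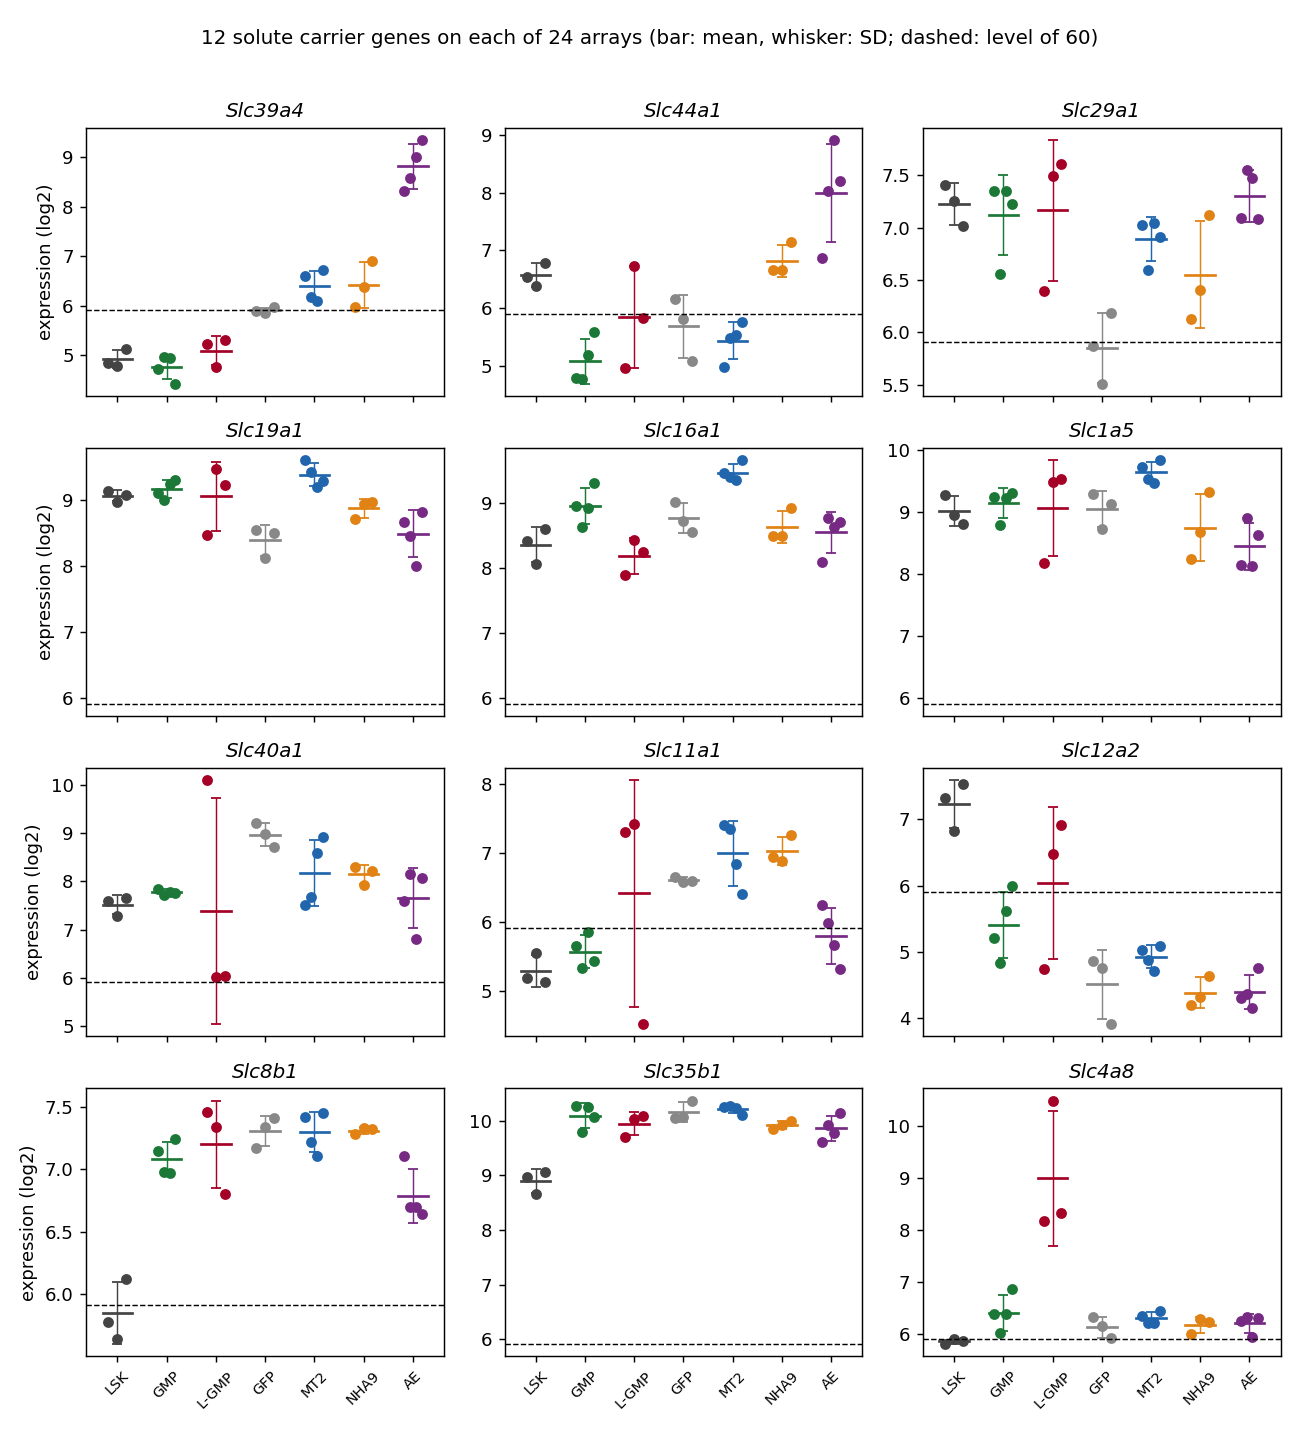
Log2 expression of 12 solute carrier genes on each array by group, with the group mean (bar), the SD (whisker) and the background level of 60 (dashed). By group mean, Slc39a4 and Slc44a1 were highest in AE, Slc29a1 lowest in GFP, and Slc12a2 highest in LSK. Slc4a8 was highest in L-GMP, where the 3 arrays lay between 8.17 and 10.49.

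Carriers of nucleosides, vitamins and choline numbered 10 of 19, with 3 over 60 on all arrays. Slc44a1 (CTL1), a choline carrier that supplies phosphatidylcholine synthesis, was at 6.87, 8.02, 8.91 and 8.20 in AE, at 6.16, 5.81 and 5.09 in GFP, at 4.99, 5.48, 5.53 and 5.76 in MT2, and at 6.66, 6.66 and 7.14 in NHA9. The AE arrays were above all GFP arrays, AE 1 being the lowest, and the MT2 arrays were all under the background level. Slc44a1 rose by 2.32 ± 0.42 in AE against GFP (at least 4.27-fold, adjusted p 0.00941). Without AE 1 it rose by 2.69 ± 0.30, where tag and group cannot be told apart. MT2 was lower than AE by at least 4.27-fold (−2.56 ± 0.34, adjusted p 0.00013) and lower than NHA9 by at least 1.88-fold (−1.38 ± 0.37, adjusted p 0.0336). The call between MT2 and NHA9 was lost in 7 of 14 fits that left out an array (adjusted p 0.0502 to 0.105 in limma). In NHA9 against GFP the Slc44a1 difference of 1.14 ± 0.27 was not called (adjusted p 0.235), although the arrays did not overlap. Slc44a1 was also higher in LSK, at 6.54, 6.39 and 6.79, than in GMP, at 4.79, 4.77, 5.20 and 5.59 (1.49 ± 0.23, at least 1.59-fold, adjusted p 0.00298), and this held with any array left out. The related Slc44a2 was lower in AE, with NHA9 exceeding AE by 0.79 ± 0.16 (adjusted p 0.00741) and MT2 exceeding AE by 0.59 ± 0.15 (adjusted p 0.00906).

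Slc29a1 (ENT1), the equilibrative nucleoside transporter that also takes up cytarabine, was lowest with the empty vector. It was at 5.87, 5.51 and 6.18 in GFP, at 7.35, 6.56, 7.35 and 7.22 in GMP, at 7.02, 6.59, 7.04 and 6.91 in MT2, at 7.09, 7.55, 7.47 and 7.08 in AE and at 6.13, 6.40 and 7.12 in NHA9. GFP lay below GMP by at least 2.32-fold (−1.27 ± 0.24, adjusted p 0.008). MT2 exceeded GFP by at least 1.97-fold (1.04 ± 0.17, adjusted p 0.00964) and AE exceeded it by at least 2.62-fold (1.44 ± 0.20, adjusted p 0.00294). These 3 calls held with any array left out. NHA9 overlapped GFP, with a difference of 0.70 ± 0.27 that was not called (adjusted p 0.427).

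Slc19a1, the reduced folate carrier that imports folates and methotrexate, was likewise lower in GFP than in GMP and MT2. Its levels were 9.60, 9.42, 9.20 and 9.29 in MT2, 8.54, 8.12 and 8.50 in GFP, 9.11, 8.99, 9.24 and 9.30 in GMP, and 8.66, 8.45, 8.00 and 8.82 in AE. Slc19a1 rose by 0.99 ± 0.14 in MT2 against GFP (1.99-fold, adjusted p 0.0078), which held with any array left out, and its other probe set was called as well (0.74). It fell from GMP to GFP (−0.77 ± 0.16, adjusted p 0.0124), and MT2 exceeded AE by 0.90 ± 0.17 (adjusted p 0.00144). The vitamin C carrier Slc23a2 (SVCT2) was higher in LSK, at 6.94, 7.21 and 7.28, than in GMP, at 5.73, 6.18, 5.66 and 6.11 (1.22 ± 0.18, 2.33-fold, adjusted p 0.00291). MT2 was below AE in Slc23a2 (−0.98 ± 0.16, adjusted p 0.000552), and so was NHA9 (−0.67 ± 0.17, adjusted p 0.0302). The call between NHA9 and AE was lost in 5 of 14 fits that left out an array (adjusted p 0.0571 to 0.136 in limma).

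Promoter sequences were compared for the members that rose in MT2 against GFP to show the regulatory sequence of genes that rose together. RefSeq promoter windows of GRCm38.p6, which span 300 bases around a start, were found for 106 of the 142 members (148 windows). The E-box CACGTG, the same on both strands, was found in the windows of 3 of the 5 genes with windows among the 8 that rose in MT2, of 18 members (17.0%), of 12.2% of the 6397 genes over the level that had windows, and of 8.09% of all genes in the table. Genes with several windows have more chances of a match. Counted by windows, the E-box was in 7.15% over all genes, 10.2% over genes above the level and 13.5% over members. Of the 13 windows of the genes that rose in MT2, 3 held it (23.1%). Those 3 windows are shown with the E-box in capitals, for Slc16a1 at chr3:104638414-104638713 on the plus strand, Slc25a33 at chr4:149774218-149774517 on the minus strand and Slc29a1 at chr17:45595197-45595496 on the minus strand.
Slc16a1: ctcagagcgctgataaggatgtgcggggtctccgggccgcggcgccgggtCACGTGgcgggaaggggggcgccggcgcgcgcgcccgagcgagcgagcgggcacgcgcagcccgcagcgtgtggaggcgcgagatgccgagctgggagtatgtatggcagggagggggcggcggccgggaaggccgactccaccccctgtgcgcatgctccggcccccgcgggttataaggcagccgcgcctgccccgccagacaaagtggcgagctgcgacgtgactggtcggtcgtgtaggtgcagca
Slc25a33: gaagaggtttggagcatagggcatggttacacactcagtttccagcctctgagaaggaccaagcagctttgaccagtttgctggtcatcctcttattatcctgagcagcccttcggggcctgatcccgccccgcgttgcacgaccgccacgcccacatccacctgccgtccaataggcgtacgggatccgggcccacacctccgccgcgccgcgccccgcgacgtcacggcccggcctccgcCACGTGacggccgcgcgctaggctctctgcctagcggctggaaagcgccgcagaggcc
Slc29a1: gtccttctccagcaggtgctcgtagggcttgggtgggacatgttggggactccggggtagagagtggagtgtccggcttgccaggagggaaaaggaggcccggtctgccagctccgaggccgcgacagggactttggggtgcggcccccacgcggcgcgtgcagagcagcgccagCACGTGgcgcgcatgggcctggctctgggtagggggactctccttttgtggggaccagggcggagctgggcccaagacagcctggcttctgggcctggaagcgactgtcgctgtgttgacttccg
AML1 binds the Runx motif TGTGGT, which was searched on both strands for the members that rose in AE. It was found in the windows of 4 of the 15 genes with windows among these 17 (26.7%), of 17 members (16%), of 15% of the genes over the level and of 18.9% of all genes. Counted by windows, the motif was in 16.7% of the 30 windows of these genes and in 13.5% of those of members. Over genes above the level the share was 12.6% and over all genes 16.8%. The window of Slc22a4 at chr11:54028055-54028354 on the minus strand is shown with that motif in capitals.
Slc22a4: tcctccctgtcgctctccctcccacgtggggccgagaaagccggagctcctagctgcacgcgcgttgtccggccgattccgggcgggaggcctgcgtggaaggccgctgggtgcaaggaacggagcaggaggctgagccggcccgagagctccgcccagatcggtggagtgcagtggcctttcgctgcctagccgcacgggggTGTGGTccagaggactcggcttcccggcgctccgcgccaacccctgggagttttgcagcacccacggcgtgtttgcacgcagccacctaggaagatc
The metal response element TGCGCNC, on either strand, was in 36 members (34%), in 30.5% of the genes over the level and in 17.0% of all genes, and the ATF4 and CEBP core TGATGCAA in 2 members (1.89%), 0.797% and 1.03%. The letters are a description of these windows and show no binding.

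Sugar and monocarboxylate carriers numbered 16 of 30, with 6 over 60 on all arrays. Slc16a1 (MCT1), which carries lactate, pyruvate and ketone bodies, was at 9.47, 9.40, 9.35 and 9.66 in MT2, at 9.01, 8.73 and 8.56 in GFP, at 8.49, 8.50 and 8.92 in NHA9, and at 8.09, 8.77, 8.63 and 8.71 in AE. Every MT2 array was above every array of the other transduced groups. Slc16a1 rose by 0.70 ± 0.14 in MT2 against GFP (1.63-fold, adjusted p 0.0152), and MT2 exceeded NHA9 by 0.83 ± 0.18 (adjusted p 0.0131) and AE by 0.92 ± 0.17 (adjusted p 0.00103). Without GFP 2 the difference from GFP was not called (adjusted p 0.0671). Slc2a9, a urate carrier of the glucose transporter family, rose in AE against GFP (1.02 ± 0.17, adjusted p 0.00655), but AE at 5.81, 6.17, 6.16 and 5.76 was close to the background level and the bound on the fold was only 1.05. Slc37a4, the glucose 6-phosphate carrier of the endoplasmic reticulum, rose from GMP to GFP (0.66 ± 0.16, adjusted p 0.0255). This call was lost in 5 of 7 fits that left out an array (adjusted p 0.0625 to 0.102). Slc50a1, a sugar carrier, was higher in LSK than in GMP (0.81 ± 0.20, adjusted p 0.0268).

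Amino acid and peptide carriers numbered 18 of 44, with 7 over 60 on all arrays. Slc1a5 (ASCT2), which imports glutamine, was at 9.73, 9.53, 9.47 and 9.84 in MT2, at 9.29, 8.73 and 9.13 in GFP, at 8.25, 8.68 and 9.33 in NHA9, and at 8.15, 8.90, 8.13 and 8.64 in AE. MT2 arrays were above all other transduced arrays. The differences of MT2 were 0.59 ± 0.15 from GFP (adjusted p 0.0363), 0.89 ± 0.24 from NHA9 (adjusted p 0.0377) and 1.19 ± 0.23 from AE (2.28-fold, adjusted p 0.00148), and those from GFP and NHA9 were lost when some arrays were left out (adjusted p up to 0.136 and 0.196). The GMP arrays of Slc1a5 lay at 9.25, 9.23 and 9.31, with GMP 2 at 8.79. The GABA carrier Slc6a13 (GAT2) was at 6.64, 7.86, 7.26 and 7.71 in AE and at 6.26, 6.28 and 6.47 in GFP (1.03 ± 0.26, 2.04-fold, adjusted p 0.0365), and AE 1, the only AE array that shares the tag of GFP, was the lowest. AE 1 alone differed from GFP by 0.31 in Slc6a13 (adjusted p 0.257, with the spread of GFP assumed for AE). With all AE arrays the call was lost in 6 of 7 fits that left out an array (adjusted p 0.0668 to 0.146). Slc7a7, a subunit of a cationic amino acid exchanger, rose from GMP to GFP (0.64 ± 0.15, adjusted p 0.0232) and from GFP to AE (0.83 ± 0.19, adjusted p 0.0234). The taurine carrier Slc6a6 rose from GMP to GFP (0.72 ± 0.17, adjusted p 0.0206), and the peptide carrier Slc15a2 (PEPT2) was higher in LSK than in GMP by at least 1.91-fold (1.55 ± 0.31, adjusted p 0.00989). The Slc6a6 call was lost in 5 of 7 fits that left out an array (adjusted p 0.0542 to 0.1). Its other probe set was at 0.52 and not called (adjusted p 0.121).

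Inorganic ion and pH carriers numbered 14 of 39, with 4 over 60 on all arrays. Their widest calls were in LSK and L-GMP. Slc12a2 (NKCC1), the sodium, potassium and chloride cotransporter that sets cell volume, was at 7.33, 6.83 and 7.53 in LSK and at 5.21, 4.83, 5.61 and 5.99 in GMP (1.82 ± 0.29, at least 2.5-fold, adjusted p 0.00346). The potassium and chloride cotransporter Slc12a7 (KCC4) was at 7.32, 7.17 and 6.61 in LSK and at 5.39, 5.38, 5.63 and 6.14 in GMP (1.39 ± 0.24, at least 2.18-fold, adjusted p 0.00551). Slc8b1 (NCLX), the sodium and calcium exchanger of mitochondria, went the other way, at 5.78, 5.64 and 6.12 in LSK and 7.15, 6.98, 6.97 and 7.24 in GMP (−1.24 ± 0.17, at least 2.26-fold lower, adjusted p 0.00193). In each of these 3 genes all LSK arrays lay on 1 side of all GMP arrays, and the calls held with any array left out. Slc12a2 was at 4.74, 6.48 and 6.91 in L-GMP 1, 2 and 3. It was not called in L-GMP with all arrays (0.63 ± 0.50, adjusted p 0.576), and was called without L-GMP 1 (1.29 ± 0.33, adjusted p 0.0432).

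Slc4a8, a sodium-driven chloride and bicarbonate exchanger, was the carrier that rose most in L-GMP. It was at 8.17, 10.49 and 8.33 in L-GMP and at 6.38, 6.03, 6.38 and 6.87 in GMP, and the 17 other arrays lay between 5.81 and 6.45. Slc4a8 rose by 2.58 ± 0.52 (5.98-fold, adjusted p 0.0243) against GMP, and by 2.99 ± 0.52 without L-GMP 1 (adjusted p 0.00976). The call did not hold with every array left out (adjusted p up to 0.0674) and L-GMP 2 was far above the other L-GMP arrays. The other call was Slc29a3 (ENT3), a nucleoside carrier of lysosomes, at 8.36, 8.65 and 8.69 in L-GMP and 7.60, 7.40, 7.62 and 7.71 in GMP (0.98 ± 0.19, 1.97-fold, adjusted p 0.0219), and 1.08 ± 0.18 without L-GMP 1 (adjusted p 0.00866). The Slc29a3 call was lost in 4 of 7 fits that left out an array (adjusted p 0.07 to 0.108). Its other probe set was at 0.95 and not called (adjusted p 0.116). Without L-GMP 1 the calls also included Slc44a4 (1.02 ± 0.26), Slc24a3 (−1.31 ± 0.21), Slc50a1 (−0.94 ± 0.20) and Slc17a9 (−0.74 ± 0.18), with adjusted p of 0.0432, 0.00601, 0.0209 and 0.0381. Mature neutrophil markers had summed levels from 2310 to 47800 over the 3 L-GMP arrays and from 20400 to 31900 over GMP, and their part was not tested.

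Slc4a2 (AE2), an anion exchanger, was at 6.95, 6.96, 7.33 and 7.11 in AE, at 6.48, 6.52 and 6.53 in GFP, at 6.55, 6.61 and 6.72 in NHA9 and at 5.58, 5.89, 5.92 and 6.34 in MT2. All AE arrays lay above and all MT2 arrays below the GFP and NHA9 arrays. AE exceeded GFP by 0.58 ± 0.14 (adjusted p 0.0336), MT2 was below GFP (−0.58 ± 0.16, adjusted p 0.0449), and MT2 was below AE by 2.23-fold (−1.16 ± 0.15, adjusted p 8.36e-05). The difference between MT2 and AE held with any array left out, while those from GFP were each lost in 6 of 7 such fits (adjusted p 0.0587 to 0.138 in AE and 0.0625 to 0.134 in MT2). The phosphate carrier Slc20a2 (PiT2) was called higher in MT2 and in AE than in GFP (0.71 ± 0.18 and 0.95 ± 0.19, adjusted p 0.0328 and 0.0134), but its other probe set was at −0.15 and −0.17 and was not called.

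Mitochondrial carriers numbered 28 of 33, with 19 over 60 on all 24 arrays, and the range of their group means had a median of 0.6, against 0.80 over all members. The ATP and ADP exchanger Slc25a5 lay between 12.50 and 13.13 on all arrays and the phosphate carrier Slc25a3 between 11.93 and 12.50. Slc25a28 (mitoferrin 2), which brings iron into mitochondria, was at 8.70, 8.75, 8.54 and 8.49 in AE, at 7.68, 7.44 and 7.88 in GFP and at 8.47, 7.94, 8.62 and 8.50 in GMP. It fell from GMP to GFP (−0.72 ± 0.20, adjusted p 0.0387), a call lost in 6 of 7 fits that left out an array (adjusted p 0.0657 to 0.172), and rose in AE against GFP (0.95 ± 0.15, 1.94-fold, adjusted p 0.00559), where the call held with any array left out and with the tag as a factor (0.92, adjusted p 0.00315). The pyrimidine nucleotide carriers Slc25a33 and Slc25a36 also rose in AE (0.85 ± 0.18 and 0.74 ± 0.16, adjusted p 0.0189 and 0.0218), as did the acylcarnitine carrier Slc25a20 (0.70 ± 0.15, adjusted p 0.0193). The other probe set of Slc25a36 was at 0.31 and not called (adjusted p 0.32). The Slc25a33 call in AE was lost in 3 of 7 fits that left out an array (adjusted p 0.0504 to 0.095). In AE 4 mitochondrial carriers rose and 0 fell of 26 tested (9.68% and 2.43% of all genes), and in MT2 1 rose (Slc25a33, 0.65 ± 0.17, adjusted p 0.0381) and 1 fell (Slc25a53, −0.57 ± 0.13, adjusted p 0.0264) of 27. Each of these MT2 calls was lost in 5 of 7 fits that left out an array (adjusted p 0.0519 to 0.139 and 0.0509 to 0.103). Against AE, MT2 had 6 mitochondrial carriers lower and 0 higher of 25, where 17.9% and 12.1% of all genes were, among them Slc25a28 (−0.63 ± 0.12, adjusted p 0.00132) and the oxoglutarate carrier Slc25a11 (−0.60 ± 0.16, adjusted p 0.0112).

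Slc25a13 (citrin), the aspartate and glutamate exchanger of mitochondria, was at 7.99, 7.62, 8.07 and 8.17 in GMP and at 6.98, 7.26 and 6.91 in GFP. It fell from GMP to GFP (−0.92 ± 0.18, 1.89-fold lower, adjusted p 0.00881), also with any array left out. LSK exceeded GMP in Slc25a53 (1.11 ± 0.21, 2.17-fold, adjusted p 0.00851), Slc25a36 (0.99 ± 0.21, adjusted p 0.0125) and Slc25a45 (0.76 ± 0.18, adjusted p 0.0195). Partner proteins of the mitochondrial membranes were counted too: of 9 tested in MT2 against GFP, where 8.8% of all genes rose, 2 rose, the import chaperones Timm10 (1.03 ± 0.14, adjusted p 0.00659) and Timm9 (0.92 ± 0.19, adjusted p 0.0184), and 0 fell, while in AE against GFP 0 of 8 were called by limma.

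**Figure D4:**
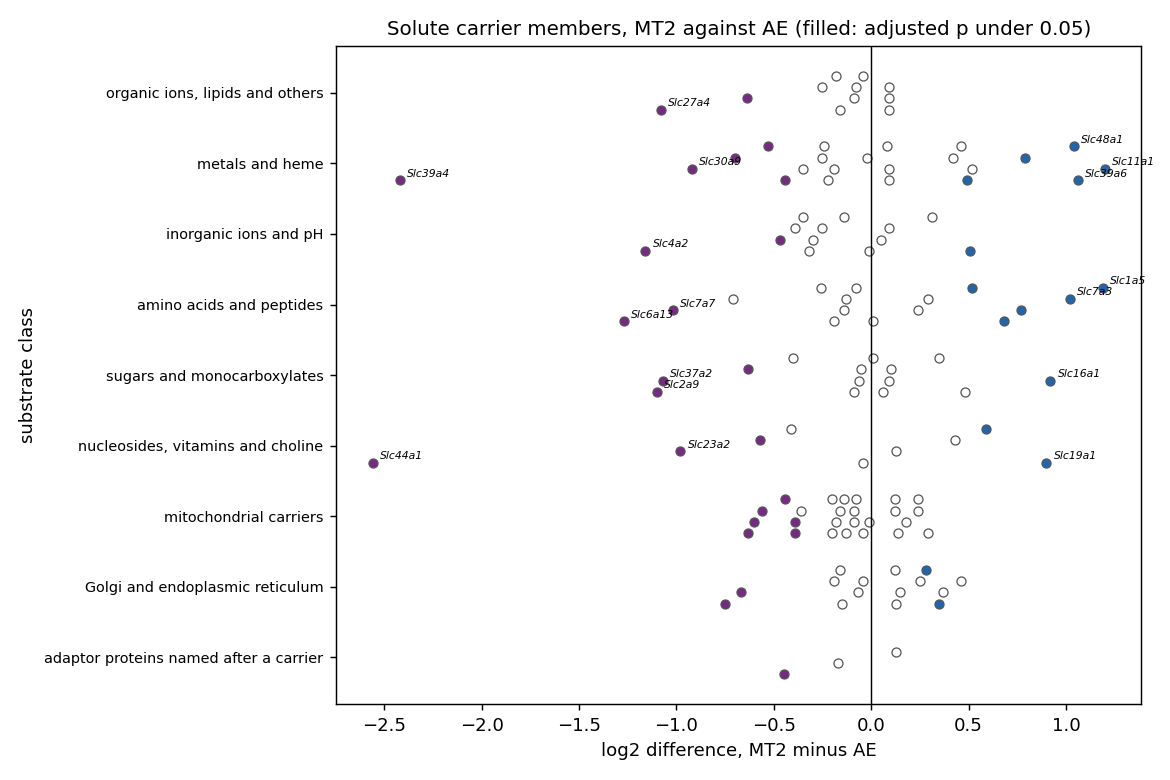
Log2 difference of MT2 minus AE (x axis) for each tested solute carrier member, by substrate class (y axis), filled where called. Slc44a1 (−2.56) and Slc39a4 (−2.42) lie farthest to the AE side, Slc11a1 (1.20) and Slc1a5 (1.19) farthest to the MT2 side, and all 6 called mitochondrial carriers lie on the AE side.

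Golgi and endoplasmic reticulum carriers numbered 16 of 19, with 11 over 60 on all arrays. Slc35b1, an ATP and ADP exchanger of the endoplasmic reticulum, was at 8.97, 8.65 and 9.07 in LSK and at 10.27, 9.79, 10.26 and 10.06 in GMP, with no overlap. It was lower in LSK by 2.3-fold (−1.20 ± 0.18, adjusted p 0.0029), also with any array left out. Slc35a5 was lower in MT2, at 6.31, 6.62, 6.85 and 6.65, than in NHA9, at 7.42, 7.18 and 7.23 (−0.67 ± 0.15, adjusted p 0.0163), and than in AE (−0.75 ± 0.14, adjusted p 0.00132). In AE against GFP 0 of 15 tested carriers of this class were called by limma, and in MT2 1 was (Slc35e1, −0.42 ± 0.12, adjusted p 0.0433). The Slc35e1 call was lost in 6 of 7 fits that left out an array (adjusted p 0.0507 to 0.167). Its other probe set was at −0.09 and not called (adjusted p 0.646).

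Organic ion, lipid and other carriers numbered 13 of 41, with 4 over 60 on all arrays. The ergothioneine carrier Slc22a4 (OCTN1) was at 6.83, 6.60, 6.53 and 6.43 in AE and at 5.57, 5.38 and 5.7 in GFP, all GFP arrays being under the background level (1.04 ± 0.15, at least 1.61-fold, adjusted p 0.00366). This held with any array left out, but with the tag as a factor the difference was 0.77 with an adjusted p of 0.18. Slc27a4 (FATP4), a fatty acid carrier, was at 7.19, 6.91, 7.34 and 7.29 in AE, at 6.50, 6.57 and 6.65 in GFP, at 6.82, 6.44 and 6.57 in NHA9 and at 6.03, 6.14, 6.19 and 6.06 in MT2. AE lay above and MT2 below the other transduced arrays. AE exceeded GFP in Slc27a4 by 0.61 ± 0.15 (adjusted p 0.0306), MT2 was below GFP (−0.47 ± 0.10, adjusted p 0.022), and MT2 was below AE by 2.11-fold (−1.08 ± 0.12, adjusted p 3.62e-05). The difference between MT2 and AE held with any array left out. That of AE from GFP was lost in 5 of 7 such fits (adjusted p 0.061 to 0.134). That of MT2 from GFP was lost in 4 of 7 (adjusted p 0.0567 to 0.079).

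Of 3 megakaryocyte markers tested in AE against GFP, 2 rose (Pf4 and Ppbp) and 0 fell, where 9.68% of all genes rose and 2.43% fell. Itga2b was not called, at 6.42, 7.16, 5.82 and 6.02 in AE and at 6.06, 6.40 and 6.20 in GFP. All 7 markers were on the array, with a summed level of 2810 to 9110 in AE and 481 to 910 in GFP. Gp1bb, Gp9, Gp5 and Vwf were under the level in both. The part of these markers in the AE values of the carriers was not tested.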

How the data were processed

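The deposited table holds log2 expression estimates that the authors made with GCRMA 2.4.1 from MAS5 cell intensity files, per the submitters' processing notes. In GCRMA the background is modelled from probe base content and arrays are put on a shared scale, so weak probe sets are pulled towards a common floor and differences of carriers near that floor are understated. The values (1.72 to 14.39) were used as deposited. Of 22690 probe sets, 64 controls were left out, 20380 had 1 gene symbol in the platform annotation, 691 several and 1555 none; RefSeq gene identifiers matched 20351 and changed 0 symbols. The members, lists, markers and motifs were chosen with earlier results of these data known.

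Each comparison was fitted with limma 3.58.1 in R 4.3.3 (lmFit, eBayes) on the arrays of its groups, and pairs of oncogenes as contrasts over the 14 transduced arrays. Probe sets were tested where over 60 on at least 2 arrays of a compared group, with Benjamini-Hochberg adjustment over all probe sets tested and a threshold of 0.05. The fit was tested on simulated data. Differences are given with their standard error, and the number of arrays limits their precision. Where a group mean was under 60, the fold is the other mean against 60 and is a lower bound.

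Members are named by a rule: up to 6 called members in each direction per comparison whose groups do not overlap, the 10 with the highest mean, the 12 with the widest range of group means and 2 per substrate class. Others are named as part of a class or a small count and were chosen after their values were seen. Lists of iron, zinc and copper genes, of mitochondrial partner proteins and of other membrane transporters were counted beside the carriers. So were lists of GMP, erythroid, mast cell, basophil and eosinophil, macrophage and monocyte, megakaryocyte and mature neutrophil markers. Alternatives were quantile normalization, no filter, the mean of a gene's probe sets, the file name tag as a factor or 1 tag only, the replicate number as a block, the two-sample Welch test of the design text, and each array left out.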

Additional observations from a re-analysis of the deposited data

Results flagged for a closer look

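Among 159 groups of 4 arrays for the 53 named members, 8 held an array that lay far from its 3 companions by Dixon's criterion, which chance gives in about 1 in 20 groups. GMP 2 was low in 3 of them: Slc1a5 at 8.79 against 9.23 to 9.31, Slc2a9 at 4.46 against 5.15 to 5.29, which is under the background level, and Slc38a10, an amino acid carrier, at 10.48 against 10.91 to 10.98. AE 1 stood apart in 2: Slc39a6 at 5.53 against 7.11 to 7.15, and Slc8b1 at 7.11 against 6.64 to 6.70. AE 4 stood apart in the adaptor gene Slc4a1ap at 7.91 against 7.26 to 7.30. MT2 1 was high in Slc23a2 at 6.30 against 6.08 to 6.11, and MT2 4 low in Slc6a6 at 6.81 against 7.18 to 7.25.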

How the results depend on the processing

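Over the named genes and the comparisons that called them, quantile normalization kept 87 of 92 calls, no filter 81 of 92, the mean of a gene's probe sets 72 of 83, the tag as a factor 58 of 92, 1 tag only 47 of 80 and the Welch test of the design text 13 of 92. Leaving out each array in turn kept 726 of 939. The only reversal was Slc39a14 in LSK against GMP, at −0.1 with the mean of its probe sets. Causes were not tested.

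Counts of called members moved by over 1.5 times as follows. With 1 tag only the counts were 6 in MT2 against GFP, 1 in NHA9 against GFP, 8 in AE against GFP (a fit with 1 AE array, assumed to vary like the other group), 1 in L-GMP against GMP (with 1 L-GMP array, likewise), 14 in MT2 against NHA9 and 6 in NHA9 against AE. With the tag as a factor they were 1 for all oncogenes against GFP, 4 in MT2 and 10 in AE against GFP, 30 in LSK, 13 in L-GMP and 23 in GFP against GMP, and 3 in NHA9 against AE. These counts include new calls. Of the main calls they kept 4 of 13 in MT2 and 7 of 19 in AE against GFP. Against GMP they kept 15 of 16 in LSK, 2 of 2 in L-GMP and 10 of 12 in GFP. Quantile normalization gave 27 in LSK and 21 in GFP against GMP. By the Welch test they were 0 in MT2 and AE against GFP, in L-GMP against GMP, in MT2 against NHA9 and in NHA9 against AE, 1 in LSK and 2 in GFP against GMP, and 19 in MT2 against AE.

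With each array left out, counts ran from 2 to 17 in MT2 against GFP (3 without MT2 1, 7 without MT2 2 or GFP 1, 6 without MT2 4 or GFP 3, 2 without GFP 2), from 0 to 1 in NHA9 against GFP (1 without NHA9 3) and from 6 to 40 in AE against GFP, where each array moved the count by over 1.5 times (40 without AE 1, 6 to 12 without any other). They ran from 8 to 30 in LSK against GMP (8 without LSK 1, 9 without LSK 2, 30 without GMP 2), from 0 to 8 in L-GMP against GMP (0 without GMP 1 or GMP 3, 1 without GMP 2 or L-GMP 2, 8 without L-GMP 1) and from 5 to 37 in GFP against GMP (37 without GMP 2, 5 to 7 without any other array but GMP 4). They ran from 0 to 8 in MT2 against NHA9 (0 without NHA9 1, 1 without MT2 1, 3 without NHA9 2, 4 without MT2 2), from 35 to 46 in MT2 against AE and from 4 to 19 in NHA9 against AE (19 without AE 1, 4 without NHA9 2, 5 without NHA9 1 or AE 3).

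Whether the replicate numbers of the titles pair the samples is not given in the labels. Deviations of same-numbered arrays correlated between −0.44 and 0.50. They were not compared with those of differently numbered arrays, so pairing stays undecided. With the replicate block the counts were 6 in AE against GFP, 1 in L-GMP against GMP and 3 in MT2 against NHA9, and 62 of 92 named calls were kept. Signal near the level of 60 limits the members whose group means lie under it.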

Other observations

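Membrane transporters outside the Slc family were counted in the same fits. In LSK against GMP, 7 of 27 tested rose and 1 fell (11.2% and 5.27% of all genes), among them the sterol exporter Abca1 (1.64 ± 0.21, adjusted p 0.0015 in limma), the drug exporter Abcg2, known from the side population of stem cells (1.21 ± 0.27, adjusted p 0.0158), and the glycerol channel Aqp9 (2.04 ± 0.24, adjusted p 0.00103). Abcg2 was lower in GFP than in GMP (−1.19 ± 0.24, adjusted p 0.0117) and higher in MT2 than in GFP (0.99 ± 0.15, adjusted p 0.00845). Abca1 rose in AE against GFP (2.02 ± 0.45, adjusted p 0.0218), as did Aqp9 (0.99 ± 0.23, adjusted p 0.0277), and MT2 was below AE in each (−2.79 ± 0.41 and −0.99 ± 0.19, adjusted p 0.000262 and 0.0017). These 3 genes were chosen from the list after their values were seen.

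Of 25 tested in MT2 against GFP, 2 rose and 0 fell (8.8% and 3.22% of all genes). Of 26 tested, 3 rose and 2 fell in AE against GFP (9.68% and 2.43%), 1 rose and 3 fell in GFP against GMP (8.77% and 7.83%), and 3 were higher and 6 lower in MT2 than in AE (12.1% and 17.9%). In L-GMP against GMP 3 of 27 rose and 1 fell (3.62% and 1.61%).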
